A study of Mus musculus with 6 samples.

Results

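The keratins described here are 9 genes that mark the epithelial lineages of the ocular surface and the eyelid skin. They are the corneal keratin Krt12, the conjunctival keratins Krt4, Krt13 and Krt19, the basal keratins Krt5, Krt14 and Krt15, and the suprabasal epidermal keratins Krt1 and Krt10. They were taken by name from the genes that the array annotation gives, and each gene was read from its brightest probe set, that is, the set with the highest mean log2 value over all arrays. All 9 were measured, among 12393 genes with a probe set naming them alone and 22626 probe sets tested. None of them had a mean over all arrays near the low end of the scale. The low end is here the 25th percentile of all values, at log2 4.84.

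Expression was profiled in 6 newborn eyeballs, taken whole at postnatal day 1 from mice of a mixed background, 3 labelled Brg1 cKO and 3 labelled wild type, with 1 array for each eyeball. In the Brg1 cKO eyeballs both alleles of Brg1 were floxed and 1 copy of the Le-Cre transgene was carried, whereas the controls were stage-matched littermates. The study used Brg1 flox/flox mice without Cre as controls for this mutant and elsewhere calls such lenses wild-type, so that the arrayed controls, labelled wild type, may carry floxed alleles. Brg1, the product of Smarca4, is the motor subunit of SWI/SNF chromatin remodeling complexes. Le-Cre is driven by Pax6 regulatory sequence and acts in the head surface ectoderm, from which lens, cornea, conjunctiva and eyelid skin arise, so that the keratin-bearing epithelia belong to the targeted territory. The study found deletion to be incomplete in many embryos and germline deletion in some mice. It reports that the phenotype of Le-Cre mice did not differ from wild type. No array of Le-Cre mice without the floxed alleles was analysed here, so that effects of Cre and of Brg1 loss on these signals cannot be told apart.

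Keratins are the intermediate filament proteins of epithelial cells, and each filament pairs a type I with a type II chain. Krt5 and Krt14 form the pair of basal cells in stratified epithelia, Krt1 and Krt10 replace them as epidermal cells leave the basal layer, and Krt4 and Krt13 are the pair of moist, non-cornified epithelia such as the conjunctiva. Krt12 is the type I keratin of corneal epithelium. Krt15 and Krt19 are type I keratins of basal and conjunctival cells, and Krt19 is also found in many simple epithelia. The 3 type II genes Krt1, Krt4 and Krt5 lie on chromosome 15, and the other 6, all type I, on chromosome 11.

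Array medians lay between 169.1 and 185.5 on the linear scale, and log2 values of array pairs correlated at r = 0.9574 to 0.9884 (across probe sets, so not over independent units). Brg1 cKO replicate 2 lay farthest from the other arrays on the first principal component. Xist read log2 4.89 in Brg1 cKO replicate 1 and 12.3 to 12.92 in the others, and Y-linked genes averaged 6.61 there and 2.62 to 2.80 in the others, so that this eyeball alone read as male. Both probe sets of Smarca4 overlapped between genotypes (differences 0.18, SE 0.19, and -0.70, SE 0.30), so that the labels were not checked by the deleted gene. The retina marker Otx2 lay at log2 11.8 to 12.67 and the lens marker Cryaa at 12.27 to 14.01 over all arrays. Lens markers were not all retained alike. Gja3 read 3.95, 5.68 and 4.40 in Brg1 cKO replicates 1 to 3, against 7.60 to 8.17 in wild type. All 12 lens genes measured had negative differences, with a median of -2.65. In whole eyeballs, fewer cells of a type and less RNA per cell cannot be told apart.

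Krt12 fell 13.05-fold in Brg1 cKO eyeballs and was the only one of the 9 past an adjusted p of 0.05 in limma, the test fitted across all probe sets, where 0.508% of probe sets passed. The conjunctival keratins and Krt15 had lower values in all Brg1 cKO arrays, by 2.46-fold to 7.50-fold on average, without passing. Krt14 had higher values in all Brg1 cKO arrays, Krt5 did not differ beyond the spread between arrays, and neither did Krt1 and Krt10. The median difference over the 9 genes was -1.30 on the log2 scale, against -0.01 over all probe sets.

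Log2 signals of Krt12 were 9.49, 9.53 and 9.19 in wild-type replicates 1 to 3, against 5.23, 6.01 and 5.85 in Brg1 cKO. On the linear scale these are intensities of 583 to 739 in wild type and of 37.4 to 64.6 in Brg1 cKO. The groups were far apart and each was tight, with means of 9.40 ± 0.19 and 5.70 ± 0.42 (log2, SD, n = 3). The difference was -3.71 (SE 0.25, 95% confidence interval -4.28 to -3.13, limma adjusted p = 0.00194), the 11th smallest p of the table. The probe set carries the suffix s, which Affymetrix gives to sets whose probes can match more than 1 transcript. The other probe set of Krt12, without that suffix, read 9.32, 9.16 and 8.56 in wild type against 4.65, 5.45 and 5.28 in Brg1 cKO and also fell (-3.89, SE 0.29, limma adjusted p = 0.00353). With any 1 array left out the difference of Krt12 lay between -3.86 and -3.47, and the limma adjusted p reached 0.0316 at most.

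**Figure D1:**
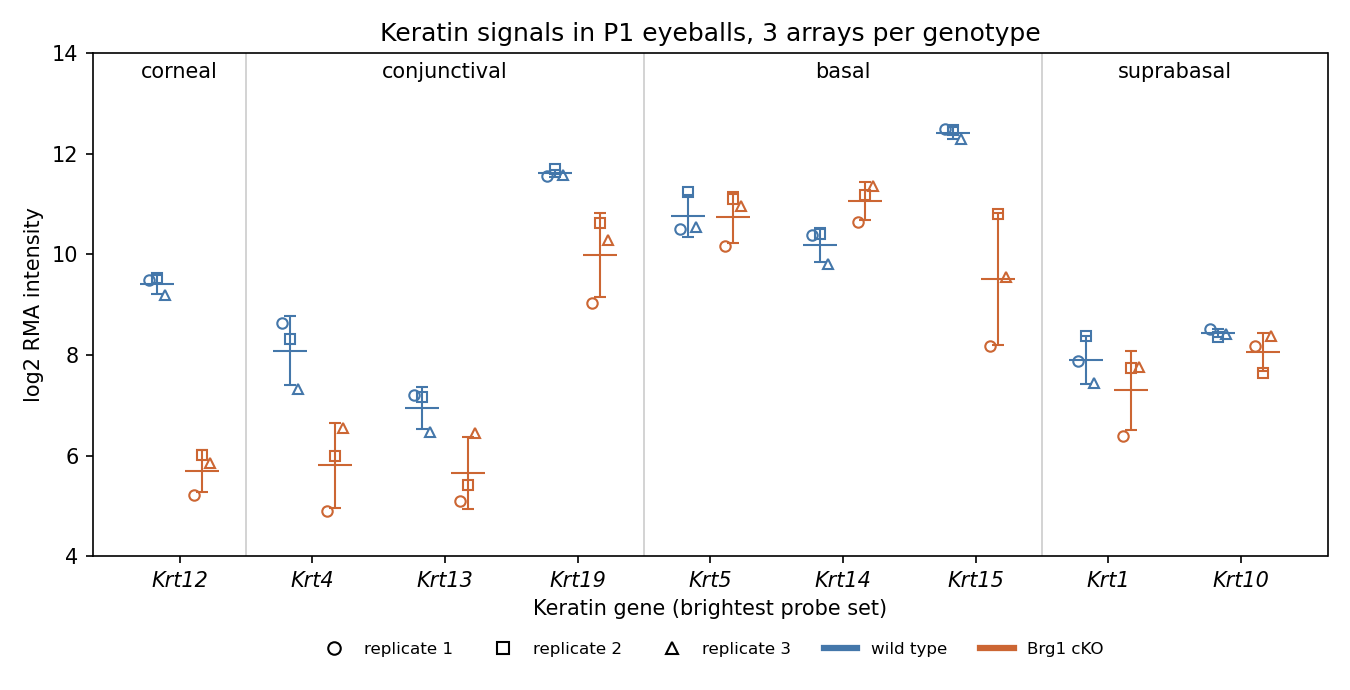
Log2 RMA intensity of the 9 keratins on the vertical axis, with wild type in blue and Brg1 cKO in orange, a symbol for each array, and the mean with SD of 3 arrays as bars. Krt12 lies at 9.19 to 9.53 in wild type and at 5.23 to 6.01 in Brg1 cKO, while Krt5 overlaps between the genotypes.

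The region upstream of Krt12 is shown beside those of Krt13, a conjunctival keratin with lower values in the Brg1 cKO arrays, and of Krt5, a type II keratin whose groups overlapped, since these genes differ in how their signal moved. The sequences are RefSeq windows of GRCm38.p6, found for 5 of the 9 keratins, from 250 bases before to 50 bases after an annotated start, all on the minus strand and printed 5′ to 3′. Capitals mark TATAAA, the letters of a TATA box, and CCACCC, a GC-rich letter group of the kind that KLF factors bind, each searched on both strands. No match of one overlapped a match of the other. Krt12 (chr11:99422210-99422509), Krt13 (chr11:100121517-100121816) and Krt5 (chr15:101712856-101713155) read as follows.
Krt12: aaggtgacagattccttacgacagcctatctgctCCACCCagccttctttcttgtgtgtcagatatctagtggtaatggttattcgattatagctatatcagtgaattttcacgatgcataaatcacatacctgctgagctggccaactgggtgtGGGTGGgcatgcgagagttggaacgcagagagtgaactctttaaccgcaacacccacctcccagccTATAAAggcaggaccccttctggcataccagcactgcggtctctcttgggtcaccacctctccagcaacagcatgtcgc
Krt13: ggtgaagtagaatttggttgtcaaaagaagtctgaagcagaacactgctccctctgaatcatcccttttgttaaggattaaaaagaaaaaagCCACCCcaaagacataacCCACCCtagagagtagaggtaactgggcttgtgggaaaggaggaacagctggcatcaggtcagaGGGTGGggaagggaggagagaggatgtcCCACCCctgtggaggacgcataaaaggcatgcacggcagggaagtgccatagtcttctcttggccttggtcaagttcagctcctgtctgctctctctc
Krt5: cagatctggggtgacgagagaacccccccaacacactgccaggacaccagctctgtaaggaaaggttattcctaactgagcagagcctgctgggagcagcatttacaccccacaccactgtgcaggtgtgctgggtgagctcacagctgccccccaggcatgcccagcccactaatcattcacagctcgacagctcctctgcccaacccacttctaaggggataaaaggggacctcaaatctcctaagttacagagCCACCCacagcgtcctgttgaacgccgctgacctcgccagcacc

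Krt12 held TATAAA at 29 bases before the annotated start and CCACCC at 216 bases before it, with the reverse complement GGGTGG at 95. This Krt13 window held no TATAAA and 4 matches of CCACCC, and that of Krt5 held 1 match of CCACCC, which lay after the start. Of all 32851 windows of this length, 13.6% held TATAAA and 31.5% held CCACCC, against 2 and 5 of the 6 windows of the keratins (Krt13 has a pair of annotated starts). The other keratin window with TATAAA was that of Krt10, whose groups overlapped, at 26 bases before the start, with CCACCC at 214. These matches describe letters only.

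Krt4, the type II keratin of moist mucosal epithelia, read 8.63, 8.31 and 7.32 in wild type against 4.90, 5.99 and 6.56 in Brg1 cKO (log2, replicates 1 to 3). The highest Brg1 cKO array lay below the lowest wild-type array, and wild-type replicate 3 was the lowest of its group. The difference was -2.27 (SE 0.49, 95% confidence interval -3.42 to -1.13), or 4.83-fold lower, with a limma adjusted p of 0.16. Its type I partner Krt13 read 7.21, 7.17 and 6.48 in wild type against 5.09, 5.41 and 6.45 in Brg1 cKO. The groups almost touched, at 6.48 in wild-type replicate 3 and 6.45 in Brg1 cKO replicate 3. Krt13 differed by -1.30 (SE 0.38, 2.46-fold lower, limma adjusted p = 0.354). A second probe set of Krt13 read 2.57 to 3.13 in all arrays, near the low end of the scale, and differed by 0.19 (SE 0.18).

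Krt19, a small keratin without a tail domain, was at a high signal in all wild-type eyeballs, with log2 11.56, 11.69 and 11.57. Brg1 cKO replicates 1 to 3 read 9.03, 10.62 and 10.29, all below wild type. Replicate 1 was the lowest of them by over 1 log2 unit. The difference was -1.63 (SE 0.39, 95% confidence interval -2.54 to -0.71), or 3.09-fold lower, with a limma adjusted p of 0.216. Without Brg1 cKO replicate 1 it was -1.15 (SE 0.20, limma adjusted p = 0.0933).

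The 3 basal keratins did not share a pattern, and none of them passed the threshold. Krt15 had log2 12.5, 12.47 and 12.28 in wild type against 8.17, 10.81 and 9.55 in Brg1 cKO. Wild-type arrays lay close together, Brg1 cKO arrays spread over more than 2 log2 units, and the groups did not overlap. The difference was -2.91 (SE 0.59, 95% confidence interval -4.28 to -1.53), or 7.50-fold lower, with a limma adjusted p of 0.129. It was -3.56 with a limma adjusted p of 0.0153 without Brg1 cKO replicate 2, and -2.24 with 0.0847 without Brg1 cKO replicate 1.

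Krt5, the type II keratin of basal cells, read 10.5, 11.24 and 10.54 in wild type against 10.16, 11.09 and 10.96 in Brg1 cKO. Both genotypes spanned about the same range, and the difference was -0.02 (SE 0.32), with a 95% confidence interval from -0.77 to 0.72. Its sign turned, to 0.22 and 0.27, without wild-type replicate 2 and without Brg1 cKO replicate 1.

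Krt14, the type I partner of Krt5, read 10.38, 10.39 and 9.80 in wild type against 10.64, 11.19 and 11.36 in Brg1 cKO. Every Brg1 cKO array lay above every wild-type array, the closest 2 at 10.64 and 10.39. The difference was 0.87 (SE 0.26, 95% confidence interval 0.25 to 1.49), or 1.83-fold higher, with a limma adjusted p of 0.383. This probe set carries the suffix x, given to sets with probes that can match other transcripts. A second set without the suffix read 9.99, 10.03 and 9.40 in wild type against 10.34, 10.91 and 11.36 in Brg1 cKO, a difference of 1.07 (SE 0.31, limma adjusted p = 0.331), and the dimmest set, at 3.86 to 4.45, differed by -0.07 (SE 0.20). Krt16, a stress-induced keratin close in sequence to Krt14, rose from a mean of 5.05 to 11.98 in the same arrays (limma adjusted p = 0.000901), and its part in the Krt14 signal was not tested.

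The suprabasal epidermal pair overlapped between genotypes. Krt1, the type II chain that epidermal cells make on leaving the basal layer, read 7.88, 8.38 and 7.45 in wild type against 6.40, 7.75 and 7.76 in Brg1 cKO. Only Brg1 cKO replicate 1 lay below the wild-type range. Krt1 differed by -0.60 (SE 0.42, 95% confidence interval -1.58 to 0.38, limma adjusted p = 0.784), and by -0.15 without that array. Krt10, its type I partner, read 8.52, 8.36 and 8.41 in wild type against 8.17, 7.64 and 8.38 in Brg1 cKO. Here replicate 2 was the lowest, and the difference was -0.37 (SE 0.22, 95% confidence interval -0.89 to 0.16, limma adjusted p = 0.75). It was -0.15 without Brg1 cKO replicate 2.

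**Figure D2:**
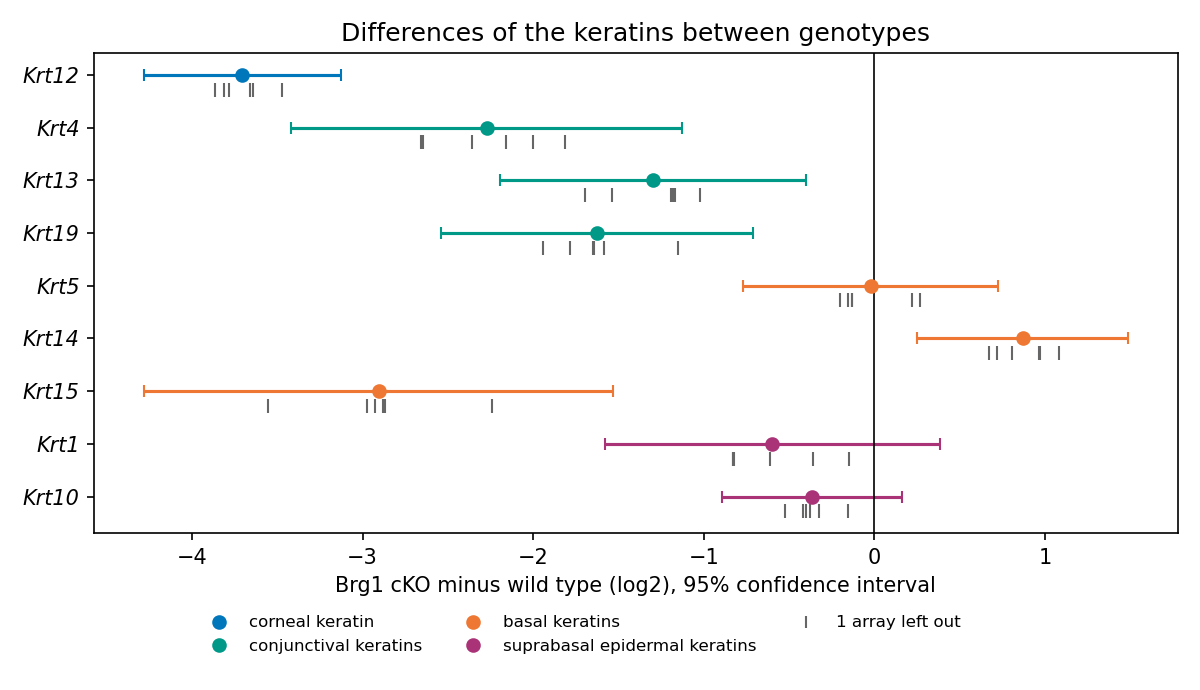
Brg1 cKO minus wild type on the log2 scale for each keratin, with points and bars for the limma estimate and its 95% confidence interval, colours for the lineage, and grey ticks for the estimates with 1 array left out. The interval of Krt12 runs from -4.28 to -3.13, and those of Krt5, Krt1 and Krt10 include 0.

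The genotypes did not overlap for 6 of the 9 keratins, 5 lower and 1 higher, where this held for 13.7% of all probe sets, 6.44% lower and 7.31% higher. An unadjusted limma p under 0.05 was found for the same 6, against 8.4% of all probe sets. By template matching as built here after the study's methods (correlation with genotype at an unadjusted p under 0.05, and a fold over 1.5), which may differ in detail from the rule as the study ran it, 5 of the 9 were called, 4 lower and 1 higher, namely Krt12, Krt4, Krt19, Krt15 and Krt14, against 3.62% of all probe sets. Exact two-sided permutation tests gave p = 0.1 for each of the 6 keratins without overlap, the smallest p that 3 arrays against 3 can give.

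Setting the keratins against each other within an array removes what is common to all of them in that eyeball. The log2 signal of Krt12 minus that of Krt14 lay -4.62, -4.38 and -4.72 from its wild-type mean in the Brg1 cKO replicates 1 to 3, where wild-type arrays lay at -0.10, -0.07 and 0.18. Krt12 minus Krt5 shifted by -3.58, -3.72 and -3.75. For Krt12 minus Krt5 wild-type arrays lay at 0.35, -0.35 and 0.00. The SDs over the Brg1 cKO arrays were 0.17 for Krt12 minus Krt14 and 0.09 for Krt12 minus Krt5, against 0.15 and 0.35 over the wild-type arrays. Of the pairs with Krt12 these have the smallest SDs in Brg1 cKO, and the SD reached 0.93 for Krt12 minus Krt15. Krt5 minus Krt15 shifted by 3.64, 1.94 and 3.07 (SD 0.87), so that Krt15 was lower against Krt5 in every Brg1 cKO array.

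Among the lower keratins the order was less clear. Krt12 minus Krt15 shifted by 0.06, -1.78 and -0.68, and overlapped with wild type at -0.08 to 0.07, so that in Brg1 cKO replicate 1 both keratins lay about equally far below wild type. Krt12 minus Krt4 shifted by -0.99, -1.29 and -2.02, and Krt12 minus Krt19 by -1.60, -2.40 and -2.24, in both cases below all wild-type arrays. In the conjunctival pair, Krt4 lay farther below its wild-type mean than Krt13 in each Brg1 cKO array, since Krt4 minus Krt13 shifted by -1.33, -0.56 and -1.03, below the wild-type range of -0.30 to 0.29. In Brg1 cKO replicate 1, Krt12, Krt4 and Krt13 read 5.23, 4.90 and 5.09, near the low end of the scale at 4.84. This limits how far each could fall, so that the order of these keratins is bounded by it. In the basal pair, Krt5 minus Krt14 shifted by -1.05, -0.66 and -0.97, while wild-type arrays lay at -0.45, 0.28 and 0.17. Krt1 minus Krt10 shifted by -1.24, 0.64 and -0.09, and overlapped with wild type. In all, 28 of 36 pairs had shifts that did not overlap between genotypes. Since 6 of the 9 keratins did not overlap taken singly, many pairs separate for that reason. No share over pairs of other genes was computed, so that this count is no result of its own. These pairs share genes and arrays, and differences between keratins were not tested beyond these values.

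**Figure D3:**
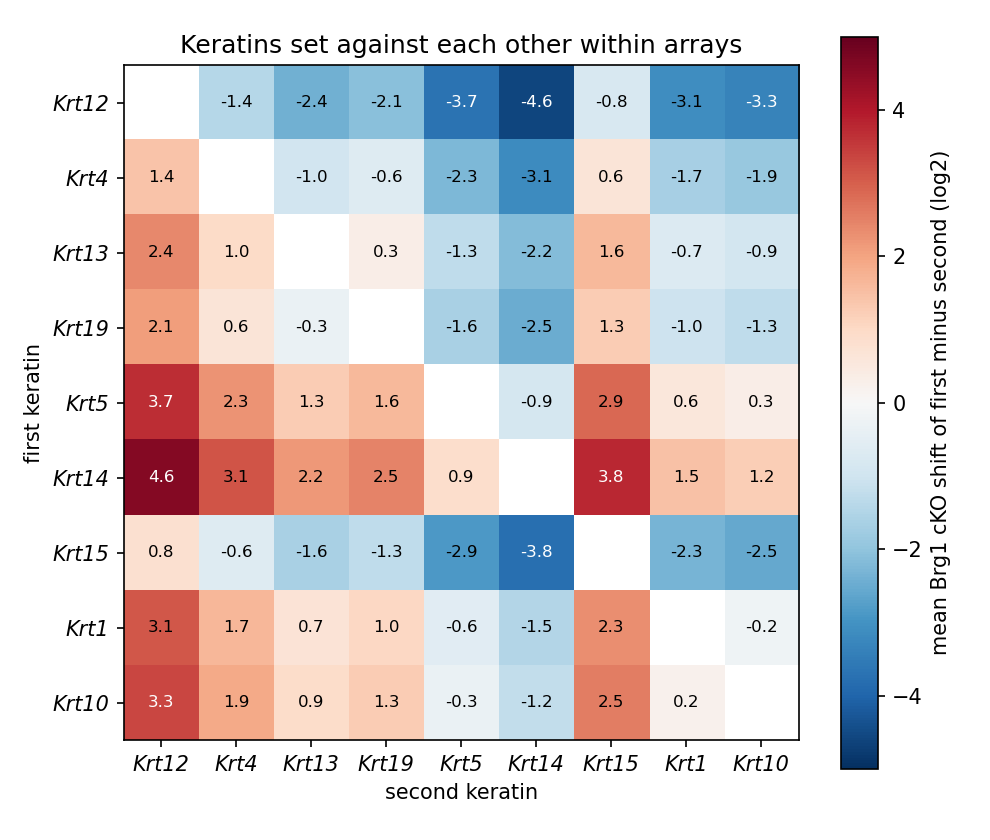
Mean shift of the 3 Brg1 cKO arrays from the wild-type mean, in log2 units, of the keratin in the row minus that in the column, with blue where the row keratin shifted down against the column keratin. The row of Krt12 is negative throughout, reaching -4.57 against Krt14 and -0.80 against Krt15.

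The Brg1 cKO arrays differed from each other in how far the keratins lay from wild type. Replicate 1 was the lowest of the 3 for 8 of the 9 keratins, all but Krt10, as it was for 28.3% of all probe sets. In that array Krt15 lay 4.24 log2 units below the wild-type mean and Krt12 4.18 below, followed by Krt4 at -3.19 and Krt19 at -2.58. In replicate 2 the shift of Krt12 was -3.39 but that of Krt15 only -1.61 and that of Krt19 -0.99. In replicate 3 Krt12 lay at -3.55, Krt15 at -2.87 and Krt13 at -0.50. Krt12 had the smallest spread of the 5 keratins with lower values, with an SD of 0.42 over the Brg1 cKO arrays, against 0.71 for Krt13 and 1.32 for Krt15. Replicate 1 is also the male eyeball. The signal of actin at its 3′ end minus that at its 5′ end, a mark of RNA quality, was log2 1.29 in Brg1 cKO replicate 1, 1.34 in replicate 2 and 0.98 in replicate 3, and 0.93 to 1.12 in wild type. The parts of sex and RNA quality in these shifts were not tested.

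**Figure D4:**
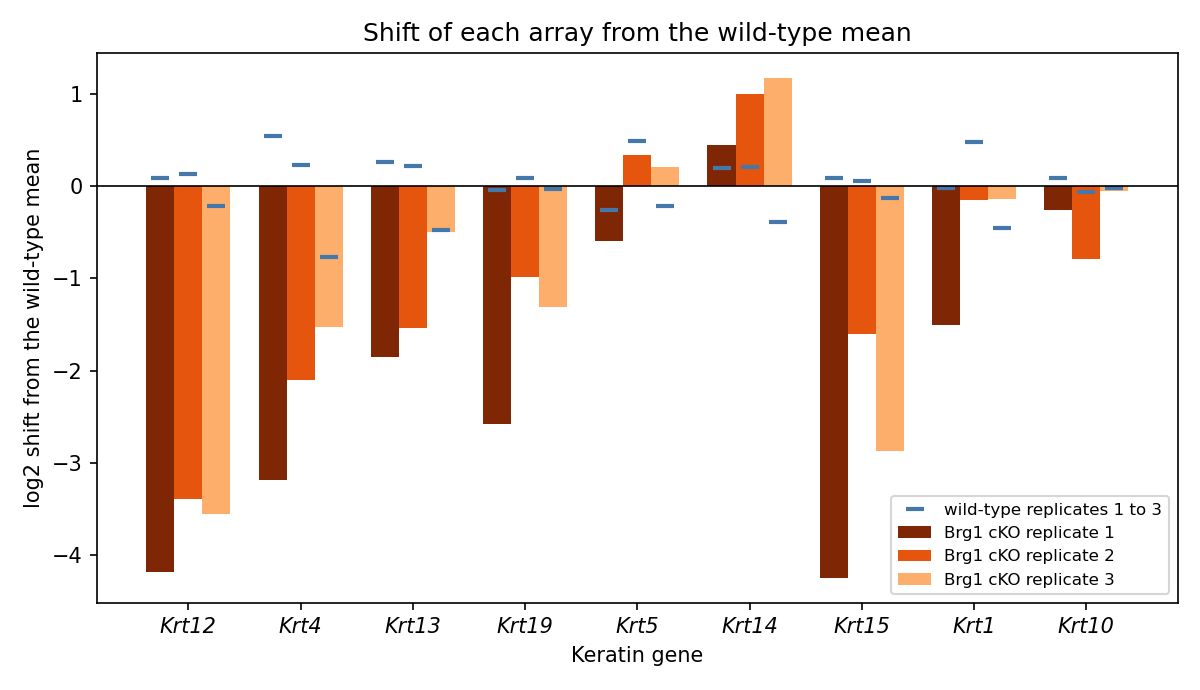
Shift of each array from the wild-type mean in log2 units on the vertical axis, with bars for Brg1 cKO replicates 1 to 3 and blue marks for wild-type replicates 1 to 3. Krt12 lies between -4.18 and -3.39 in all Brg1 cKO arrays, whereas Krt15 reaches from -4.24 to -1.61.

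The SD over arrays was larger in Brg1 cKO than in wild type for 9 of the 9 keratins, as for 65.3% of all probe sets. The ratio of the SDs was 11.8 for Krt19 and 11.3 for Krt15, whose wild-type arrays had SDs of only 0.071 and 0.12. It was 4.73 for Krt10, 2.22 for Krt12 and between 1.11 and 1.72 for Krt14, Krt5, Krt4, Krt1 and Krt13. With 3 arrays in each group these ratios are rough. In wild type, replicate 3 was the lowest array for 6 of the 9, as for 29.3% of all probe sets.

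Across the 6 arrays, the signals of the 5 keratins with lower values in Brg1 cKO were correlated. Pearson's r was 0.94 for Krt12 with Krt15, 0.92 with Krt4, 0.92 with Krt19 and 0.85 with Krt13. It was 0.99 for Krt15 with Krt19, 0.97 for the pair of Krt4 and Krt13, and 0.79 for Krt13 with Krt15, the lowest among these 5 keratins. It was 0.15 for Krt12 with Krt5 and -0.75 with Krt14. These values describe 6 arrays that share the split by genotype. Of 9773 genes above the low end, those most like Krt12 over the 6 arrays were Lix1 (r = 0.995), Epha1, Mboat1, Plaat3 and Pdlim7 (r = 0.986). Of these Lix1 and Plaat3 fell, by 1.98 and 1.72 on the log2 scale (limma adjusted p = 0.00972 and 0.0248). Genes chosen for likeness to Krt12 share its split by genotype, so that their lower values follow from the choice and are no separate support. Those most like Krt14 were Nelfa (r = 0.985), Ly96, Sprr2k, Hyal2 and Gjb2 (r = 0.958), of which none passed the threshold in limma.

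The other keratins of the array showed where these 9 stand in their family. Of 31 further keratin genes, 2 rose and 0 fell in limma, where 0.305% of all probe sets rose and 0.203% fell. Of these genes 19 had means near the low end of the scale, and the median difference of the 31 was -0.05. Among the 12 brighter ones, kept by their mean over all arrays, the genotypes did not overlap for 6, 3 higher and 3 lower. This held for 13.7% of all probe sets. Krt23 and Krt25 were kept through wild type only, with means of 6.23 and 5.91 there and of 4.38 and 4.79 in Brg1 cKO. Krt23 is among the lower ones. The median absolute difference of the brighter genes was 1.11, against 0.193 over all probe sets, which include dim ones, so that these values are not like for like. The risen genes were Krt16 (log2 6.93, SE 0.40, limma adjusted p = 0.000901) and Krt6b (log2 3.35, SE 0.31, limma adjusted p = 0.00824), both keratins of wounded epidermis. Of the keratins of simple epithelia, chosen here after their values were seen, Krt7 differed by -2.92 (SE 0.59, limma adjusted p = 0.129), Krt8 by -1.09 (SE 0.25) and Krt18 by 0.01 (SE 0.31). Krt7 read 9.30 to 9.42 in wild type and from 5.40 in Brg1 cKO replicate 1 to 7.94 in replicate 2, which are also the lowest and the highest Brg1 cKO arrays for Krt15.

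**Figure D5:**
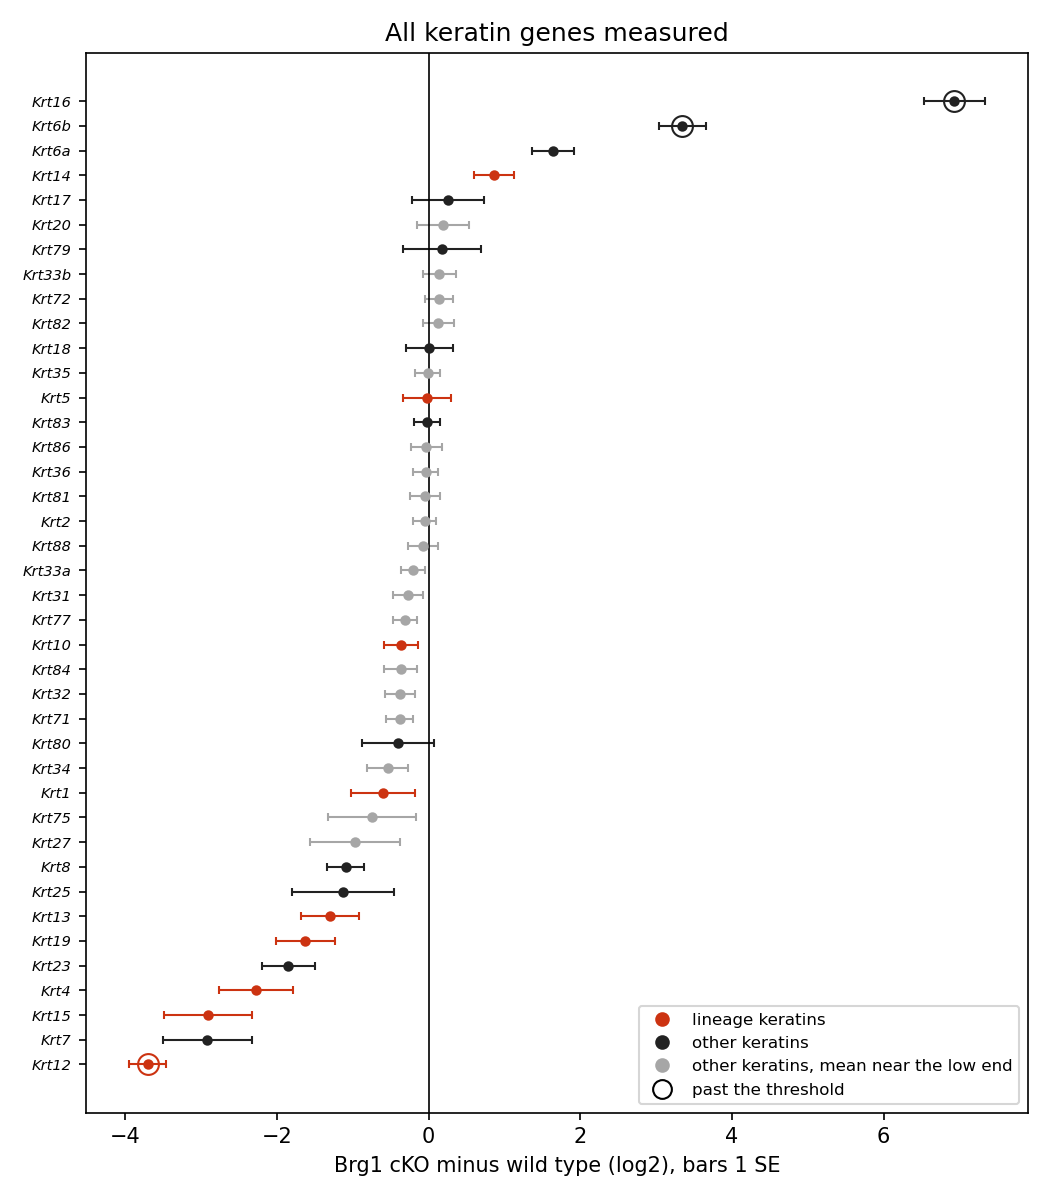
Brg1 cKO minus wild type on the log2 scale for all 40 keratin genes measured, sorted by the difference, with bars of 1 SE, red for the 9 lineage keratins, grey for other keratins whose mean lies below log2 4.84, and circles for genes past the threshold. Krt16 at 6.93 and Krt12 at -3.71 lie at opposite ends.

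Genes that work beside these keratins were read in lists. Of 14 genes of corneal epithelium, 1 fell and 12 had negative differences, with a list median of -0.44, and Ehf, an epithelial ETS factor, was the one that fell (log2 -3.88, SE 0.35, limma adjusted p = 0.00752). The genotypes did not overlap for 6 lower and 0 higher of them, against 6.44% and 7.31% of all probe sets. The list is not confined to cornea in whole eyeballs, since it holds Pax6, which the study also detected in lens epithelium. Of 13 conjunctival and mucosal genes, the neighbours of Krt4 and Krt13, 0 passed in limma, all 13 differences were negative, and 10 had means near the low end (list median -0.61). Of 13 basal layer genes, the neighbours of Krt5 and Krt14, 0 passed in limma, with 6 positive and 7 negative differences and a median of -0.01. The genotypes did not overlap for 3 lower and 1 higher of them, against 6.44% and 7.31% of all probe sets. Trp63 was among the lower ones (log2 -2.03, SE 0.48, limma adjusted p = 0.209). The higher one was Lama3 (log2 1.19, SE 0.41, limma adjusted p = 0.469). Of 16 suprabasal epidermal genes, the neighbours of Krt1 and Krt10, 1 rose, 14 differences were positive, 9 had means near the low end, and the median was 0.62. The differences of Krt1 and Krt10 were negative, with intervals that include 0. The risen gene was Sprr3, a precursor of the cornified envelope, from a wild-type mean of 2.78, near the low end (log2 2.59, SE 0.31, limma adjusted p = 0.0212). Krtdap, the brightest gene of the list, had higher values in all Brg1 cKO arrays without passing (log2 1.88, SE 0.33, limma adjusted p = 0.0861). Calml3, a calmodulin-like protein of stratified epithelia and another of the brighter genes, went the other way, also without passing (log2 -3.04, SE 0.47, limma adjusted p = 0.0533). It read 9.16 to 9.90 in wild type and 5.53 to 7.47 in Brg1 cKO. Krtdap and Calml3, like Trp63 and Lama3, were named after their values were seen. Of all 22626 probe sets, 0.305% rose, 0.203% fell, 11087 had positive and 11539 negative differences, and an unadjusted limma p under 0.05 was found for 1900.

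Epithelial adhesion genes and markers of other tissue moved with some of these values. The adhesion genes are of epithelia, as the keratins are, so that they do not stand for a separate tissue. The 16 measured genes of epithelial adhesion had median shifts from wild type of -1.10 in Brg1 cKO replicate 1, -0.06 in replicate 2 and -0.60 in replicate 3. The lowest was in the same array as for 8 of the 9 keratins. Of these genes 5 had positive and 11 negative differences. Their summed signal lay at log2 13.43 to 13.95 in wild type and 12.73 to 13.9 in Brg1 cKO. The summed signal of 14 skeletal muscle genes, which mark extraocular muscle on the eyeball, lay at 15.1 to 15.8 in wild type and at 14.69 in Brg1 cKO replicate 1, 16.03 in replicate 2 and 15.71 in replicate 3. It too was lowest in replicate 1. That of 13 retina genes lay at 14.38 to 14.53 in wild type and was highest in replicate 1, at 14.83, with 13.99 in replicate 2 and 14.56 in replicate 3. That of 12 lens genes lay at 16.82 to 16.97 in wild type and at 15.02, 16.14 and 14.43 in the Brg1 cKO arrays, and that of 13 myeloid genes at 11.42 to 11.86 and at 12.58, 13.87 and 12.82. Of the lens genes 1 fell, Gja3 (log2 -3.15, SE 0.43, limma adjusted p = 0.0319), where 0.203% of all probe sets fell. Of the myeloid genes 1 rose, Cd14 (log2 5.92, SE 0.55, limma adjusted p = 0.00824), where 0.305% of all probe sets rose. How much eyelid or conjunctival tissue stayed on each eyeball is not known, and the part of tissue amounts in the keratin differences was not tested.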

How the data were processed

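Total RNA of individual eyeballs, 50 ng per sample, was amplified and hybridised to Affymetrix mouse expression arrays. The authors applied RMA (background adjustment, normalization between arrays, probe set summary), and the deposited intensity values are on a linear scale and were converted to log2 here. The software used for RMA: not given in the sources used here. Normalization between arrays and signals near background compress differences, and precision is limited by the number of arrays.

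Of 22690 rows, 64 array controls were left out. Probe sets were named from the platform annotation where it gave 1 gene (20380), several genes were given for 691, and 1555 stayed unnamed. Genotypes were compared with limma 3.58.1 in R 4.3.3 (genotype only, two-sided, Benjamini-Hochberg over all 22626 probe sets, threshold 0.05), and the limma fit was tested on simulated data. Standard errors and intervals come from this model, and folds are powers of 2 of its differences. The samples are called biological replicates by the series' description. Alternatives left out each array, filtered on intensity, added a pseudocount of 32, rescaled arrays, changed moderation, weights or probe set, added a replicate block, or used template matching. The genes named by rule are the 9 keratins, other keratins and list members past the threshold, and the 5 genes most correlated with Krt12 and with Krt14. Further genes not past the threshold are named in places, some of them after their values were seen. The keratins and lists were chosen with earlier results of these data known.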

Additional observations from a re-analysis of the deposited data

How the results depend on the processing

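Krt12 passed the threshold in all 14 alternatives run for it, with differences from -3.89 to -3.07 and a limma adjusted p of 0.0316 at most. Of 120 recomputed keratin differences, 115 kept both direction and side of the threshold. Krt15 passed without Brg1 cKO replicate 2 (-3.56) and with array quality weights (-3.09), both of which make 2 keratins pass in place of 1, and template matching made 5 pass. With an array left out, the number of keratins that passed was 1 to 2, Krt15 differed by -3.56 to -2.24, and Krt5, at -0.02, by -0.20 to 0.27, turning sign. Krt13 read 0.19 by its dimmer probe set, near the low end of the scale, and the median of the 9 keratins was then -0.60. The 115 probe sets past the threshold were 24 to 216 with an array left out (24, 26 and 36 without wild-type replicates 1 to 3, 53 and 216 without Brg1 cKO replicates 3 and 2), 16 with a pseudocount of 32, 190 with array quality weights and 820 by template matching. Why these counts moved was not tested.

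Replicate numbers were shared by the labels of both genotypes. With the replicate block 45 probe sets passed, Krt12 among them (limma adjusted p = 0.0244), and the calls of the 9 keratins did not change. Same-numbered arrays deviated together at r = 0.06, 0.08 and 0.13 across probe sets, and not every array correlated best with its own number, so that the numbers were not taken as pairs. Signals near the low end limit the dimmer probe sets of Krt13 and Krt14, and also the Brg1 cKO values of Krt12, Krt4 and Krt13. With a pseudocount of 32, Krt4 differed by -1.76 and Krt13 by -0.90.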
